A study of Mus musculus with 2 samples.

Results

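Cells that carried transcripts of Dlx genes together with those of mesenchymal regulators, and none of the crest gene Sox10 or the epithelial gene Epcam, were followed in single-cell transcriptomes of the mouse hindbrain and pharyngeal region. A cell was a member if it held at least 2 unique molecular identifiers (UMIs, each standing for 1 captured transcript) summed over Dlx1, Dlx2, Dlx5 and Dlx6, at least 1 UMI summed over Twist1, Prrx1, Prrx2, Alx1 and Hand2, and no UMI of Sox10 or Epcam. The rule chose 114 of 21723 cells, 44 of 11958 in the WT library and 70 of 9765 in the KO library. These levels chose the cells, so the levels of the 11 genes of the rule in the members are a description.

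The study asked what the loss of Prdm6, a PR domain factor linked to histone H4 lysine 20 methylation, does to neural crest. Both libraries came from C57BL/6 embryos at E9.5 that carried Wnt1-Cre2 and the ZsGreen1 reporter and had no treatment. The WT embryos were Prdm6+/+; Wnt1-Cre2; ZsGreen1 and the KO embryos Prdm6f/f; Wnt1-Cre2; ZsGreen1. The dissected piece ran from the middle of the otic placode to the hind edge of somite 4. Wnt1-Cre2 drives Cre in the Wnt1 lineage, which holds neural crest and dorsal neural tube and leaves the mesoderm, endoderm and most ectoderm of the piece with an intact Prdm6. No sort on the reporter was described, samples were tagged and pooled by MULTI-Seq, and cells were not assigned to single embryos here. Each genotype was therefore 1 library, so no test between genotypes was possible, and every interval below is a 95% interval that covers counting error only. Prdm6 itself gave 1 UMI in the WT members and 1 UMI in the KO members, and a 3' read cannot show whether its allele was recombined, so the target gene gave no check of the labels in these cells.

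Cranial neural crest leaves the dorsal neural tube, shuts down Sox10 as it enters the pharyngeal arches, and becomes a mesenchyme that builds jaw and throat skeleton and the walls of the arch arteries. In the arches, Dlx1 and Dlx2 are used along most of the dorsoventral extent and Dlx5 and Dlx6 in the lower part, a nested code that gives each level its identity, with endothelin signaling and Hand2 acting ventrally and Notch signaling dorsally. Twist1, Prrx1 and Prrx2 keep the crest mesenchymal, and Hox genes of groups 2 and 3 mark the arches behind the first.

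In the GENCODE vM21 annotation of GRCm38, Dlx1 lies at chr2:71528113-71533981 on the plus strand and Dlx2 at chr2:71543408-71546754 on the minus strand. The gap between this convergent pair is 9426 bases. Dlx6 lies at chr6:6863334-6868568 on the plus strand and Dlx5 at chr6:6877805-6882085 on the minus strand, again convergent and with 9236 bases between them. Dlx2 was the most abundant of the 4 in the members, so its promoter is shown from RefSeq (GRCm38.p6, chr2:71546755-71547004, minus strand, the 250 bases before the transcription start). Capitals mark CACGTG, an E-box of the class that basic helix-loop-helix factors such as Twist1 and Hand2 can bind:

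Dlx2 promoter: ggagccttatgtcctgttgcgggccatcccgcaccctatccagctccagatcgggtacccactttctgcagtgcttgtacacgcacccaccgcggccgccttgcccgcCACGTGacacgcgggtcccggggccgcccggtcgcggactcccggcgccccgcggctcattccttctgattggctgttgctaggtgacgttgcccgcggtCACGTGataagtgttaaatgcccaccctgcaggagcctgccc

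The motif reads the same on both strands and starts 142 and 42 bases before the transcription start. CACGTG occurred in 6.02% of 32851 mouse promoters of 250 bases before to 50 after the start, 2 or more times in 0.429% of them, and the wider pattern CANNTG in 66.2%. A match in these letters is a description and was not tied to binding here. RefSeq promoter entries matched 7 of the 11 rule genes.

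The libraries held 20781384 UMIs in WT (median 1597 per cell) and 18936857 in KO (median 1703). Members were deeper than other cells, with medians of 2516 UMIs in WT (range 1023 to 3972) and 2860 in KO (range 1166 to 4569), against 1594.5 and 1697 in all other cells. Of the cell barcodes, 26 occurred in both libraries, and 0 of these were members.

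Among the 4 Dlx genes, Dlx2 led: it gave 79 UMIs in 40 of 44 WT members and 145 UMIs in 63 of 70 KO members, or 729 and 738 counts per 1000000 UMIs of the class (CPM). Dlx1 gave the fewest of the 4, with 11 UMIs in 9 WT cells and 26 in 21 KO cells (102 and 132 CPM). Dlx5 gave 20 UMIs in 14 WT cells and 30 in 25 KO cells (185 and 153 CPM), and Dlx6 18 UMIs in 12 WT cells and 29 in 19 KO cells (166 and 148 CPM). Thus the members rested mostly on Dlx2, with the Dlx5 and Dlx6 pair in about as many cells as not. Dlx1 or Dlx2 alone, without the other pair, was seen in 22 of 44 WT and 32 of 70 KO members, Dlx5 or Dlx6 alone in 4 and 5, and both pairs in 18 and 33. Only Dlx2 UMIs were found in 17 WT and 19 KO members.

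Of the mesenchymal genes, Twist1, a factor needed for crest to become mesenchyme, was the most common, with 92 UMIs in 34 WT members and 136 in 57 KO members (849 and 692 CPM). Prrx1, a homeobox gene of limb and face mesenchyme, gave 25 and 60 UMIs (231 and 306 CPM), and its relative Prrx2 gave 22 and 44 (203 and 224 CPM). Hand2, which sets ventral arch identity, gave 10 UMIs in 8 WT cells and 24 in 15 KO cells. Alx1, a frontonasal gene, had 3 UMIs in WT and 2 in KO. A mesenchymal identity read from a single gene was frequent: Twist1 was the sole gene of the 5 in 13 WT and 17 KO members, while 23 and 42 members carried 2 or more of the 5.

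The threshold cut through a falling distribution. Among cells that met the rest of the rule, 158 WT and 206 KO cells held exactly 1 Dlx UMI and stood just outside, and 24 WT and 31 KO cells held 2 and stood just inside. A further 8 and 21 held 3, 7 and 3 held 4, and 5 and 15 held 5 or more. Another 40 cells in each library met the rule but for a Sox10 UMI, and 4 WT and 10 KO cells but for the mesenchymal gene. Members were thus outnumbered by cells 1 Dlx UMI short of them.

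Some crest genes that the rule did not use differed between the sides of that threshold and others did not, in bins of Dlx UMIs and for genes chosen after the values were seen. Crabp1, a retinoic acid binding protein abundant in hindbrain crest, stood at 1088 CPM in WT cells with no Dlx UMI, 1545 with 1, 4685 with 2 and 3621 with 3 or more. In KO the same bins gave 1289, 1535, 3096 and 3212. Tfap2a, an AP-2 factor of crest and surface ectoderm, ran 7.63, 34.0, 145 and 75.0 CPM in WT and 8.39, 23.6, 79.1 and 66.4 in KO. Cells with 1 Dlx UMI therefore sat nearer to those with none than to those with 2 for Crabp1, and about midway in fold for Tfap2a, which rested on 6 to 10 UMIs in these bins of 1 and 2. Nr2f1, a nuclear receptor of cranial crest, was near the level of the Dlx-negative cells at 1 Dlx UMI, with 526, 517, 1199 and 863 in WT and 491, 553, 1054 and 888 in KO. Dlx3, a family member outside the rule, ran 1.41, 6.81, 18.2 and 37.5 CPM in WT and 2.53, 4.72, 39.5 and 49.8 in KO, on 1 to 19 UMIs a bin. Sox9, a crest and cartilage factor, showed no step between 1 and 2 Dlx UMIs, with 232, 269, 254 and 525 CPM in WT and 190, 281, 277 and 299 in KO. Ets1, a factor of cranial crest, ran 74.4, 54.5, 36.3 and 113 CPM in WT and 81.7, 85.0, 105 and 49.8 in KO. Pax3, a dorsal neural tube and crest factor, was lowest at 3 or more, with 63.1, 54.5, 36.3 and 0 CPM in WT and 53.7, 61.4, 52.7 and 24.9 in KO. Median depth differed between the bins as well, from 1691 with no Dlx UMI to 2639 UMIs with 3 or more in WT and from 1774.5 to 3047 in KO, and its part in these levels was not tested.

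**Figure D1:**
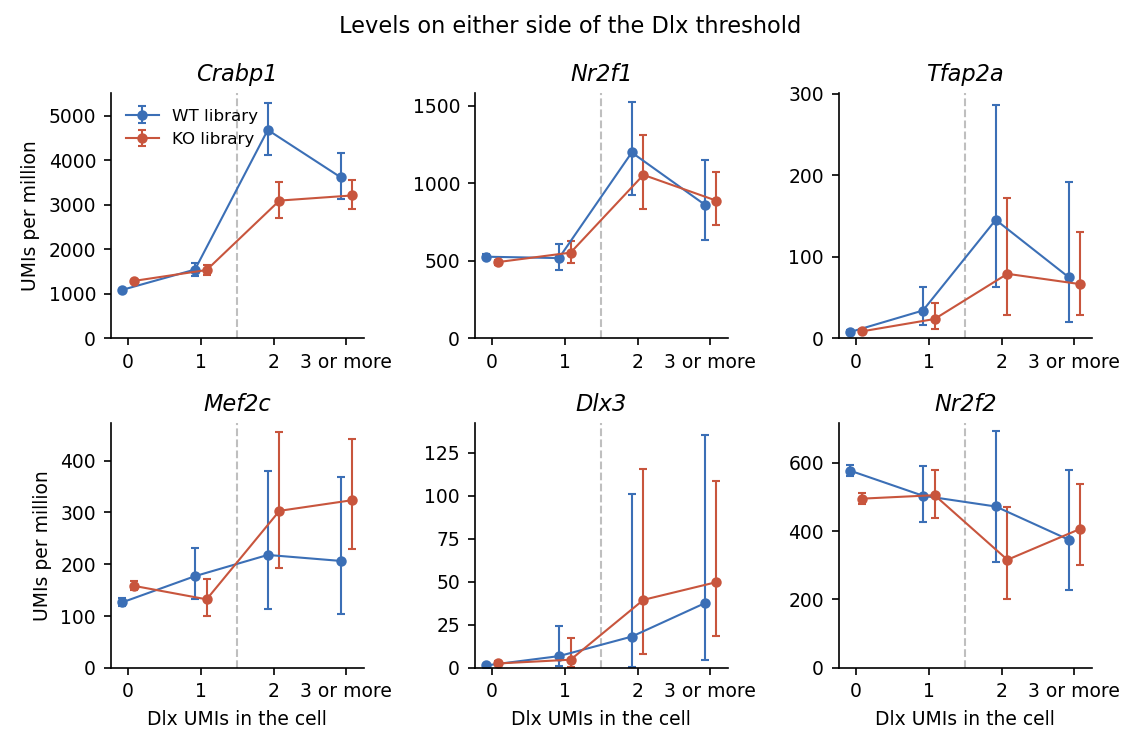
Level (CPM, linear axes from 0) of 6 genes outside the rule in cells that met the rest of the rule, by the number of Dlx UMIs in the cell, with the WT library in blue and the KO library in red. Points are levels over the summed cells, bars 95% Poisson intervals and the dashed line the rule's minimum of 2; Crabp1 in WT stands at 1545 with 1 Dlx UMI and 4685 with 2.

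Background Dlx detection was measured in cells that should lack these genes, chosen by marker sums set after the data were seen. At least 1 Dlx UMI was found in 2.17% of 508 WT and 5.39% of 408 KO cells with endothelial markers (median depth 2191 and 2746), against 5.16% and 8.20% of all cells (median depth 1597 and 1703). Globin-rich cells gave 3.29% and 2.80%, and cells with strong cardiac markers 3.17% and 4.11%. After thinning to 1000 UMIs, all cells gave 3.25% and 4.63%, the endothelial-marker cells 0.798% and 3.19%, the globin-rich cells 1.28% and 0.935% and the cardiac cells 1.52% and 0.822%. At equal depth these classes thus lay below all cells in both libraries, the KO endothelial-marker cells being the closest. At least 2 Dlx UMIs were seen in 0 of 508 WT endothelial-marker cells, which allows a share of up to 0.591%, and in 2 of 408 KO cells. Among globin-rich cells 2 or more occurred in 0 of 547 and 0 of 214, and among cardiac cells in 2 of 662 and 1 of 365, of which 1 in each library was a member.

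Marker lists of other lineages differed in how far they reached into the members. No member held 3 or more UMIs over the endothelial list or over the macrophage list, whose sums were 6 and 13 UMIs and 1 and 0 UMIs in WT and KO. The epithelial list reached 3 UMIs in 2 WT and 0 KO members, and the neural tube list in 2 and 1. The cardiac list did so in 9 WT and 26 KO members, but 10 or more in only 1 of each, which held 105 of the 185 cardiac UMIs of the WT members and 57 of the 202 of the KO members. The summed cardiac level of the members, 1707 CPM for WT and 1029 for KO, was above the 915 and 844 of Sox10-positive crest but below the 4497 and 3848 of Dlx-negative mesenchyme. Its place above the crest rested on that 1 cell of each library, without which it fell below the crest in both. The erythroid list reached 3 UMIs in 41 WT and 47 KO members, and stood at 3202 CPM in WT and 1354 in KO members, near the 3508 and 1291 of Sox10-positive crest and below the 10919.8 and 5499.6 of Dlx-negative mesenchyme.

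Members were set beside all other cells and beside 2 reference classes, one with Sox10 and one that met all of the rule but Dlx, computed within each library so that the WT and KO folds could be read side by side. Sox10-positive crest had at least 2 Sox10 UMIs and no Epcam UMI (247 WT and 173 KO cells), and Dlx-negative mesenchyme met the rest of the rule with no Dlx UMI (4703 and 3814 cells). A gene was counted when it passed 2-fold in the same direction in both libraries with at least 100 UMIs over the members or the equivalent in the reference. Because the rule chose the cells, these folds are a description.

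Against all other cells, 6 of 608 genes were higher (0.987%) and 10 lower (1.64%). Over all 3210 genes with at least 20 UMIs in the members these shares were 1.12% and 0.467%. That minimum counts member UMIs only, so genes low in the members drop out and the lower share is held down. Beside the rule genes Dlx2 and Twist1, the higher genes were Rap2c, a small Ras-like GTPase, the noncoding transcript AC160336.1, Lmo4, a LIM-only cofactor, and Nr2f1. Rap2c stood at 332 CPM in WT members and 387 in KO members, against 120.0 and 121 in the other cells (log2 1.47 in WT and 1.68 in KO). Lmo4 stood at 600 and 728, against 246 and 256 (log2 1.29 and 1.51). Rap2c and Lmo4 thus differed from the rest of the tissue by similar amounts in each library. The lower genes were globins (Hba-a1, Hba-a2, Hbb-bh1, Hbb-y and Hba-x), cardiac and smooth muscle genes (Myl4, Myl7 and Acta2), H19, and Igfbp5, an IGF binding protein whose log2 difference was -1.26 in WT and -2.65 in KO.

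Against Sox10-positive crest, 4 of 582 genes were higher (0.687%) and 2 lower (0.344%). Twist1 had log2 differences of 2.59 in WT and 2.01 in KO, Dlx2 1.90 and 1.74, Rap2c 1.71 and 1.63, and Peg3, an imprinted zinc finger gene, 1.43 and 1.42. The lower genes were Sox10, which the rule excluded, and Tfap2b, an AP-2 factor of early crest, at 55.4 and 66.2 CPM in the members against 470 and 503 in Sox10-positive crest. Both other crest genes given here, named after their values were seen since they had under 20 UMIs, were lower as well. Foxd3, which keeps crest undifferentiated, stood at 18.5 and 10.2 against 225 and 173, and Erbb3, the neuregulin receptor of crest and glia, at 36.9 and 40.7 against 261 and 274. The summed glial and neuronal crest list was 185 and 153 CPM in the members and 1187 and 1058 in Sox10-positive crest.

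Some mesenchymal genes outside the rule were higher than in Sox10-positive crest. At a minimum of 20 UMIs, 1 of 11 receptors and 1 of 5 ligands were 2-fold higher than the crest in both libraries. The same held for 1 of 10 matrix genes and 0 of 5 smooth muscle genes. Pdgfra, the PDGF receptor of crest mesenchyme, stood at 194 CPM in WT members and 209 in KO members, against 42.7 and 59.7 in Sox10-positive crest and 193 and 153 in Dlx-negative mesenchyme. Wnt5a, a ligand of arch mesenchyme, stood at 185 and 158, against 37.8 and 38.5 in the crest and 94.8 and 112 in the mesenchyme. Cdh11, a mesenchymal cadherin, stood at 295 and 219, against 70.6 and 79.0 in the crest and 172 and 191 in the mesenchyme. In these 3 genes the members lay above the crest and at or above the mesenchyme in both libraries. Snai2, a transcriptional repressor that drives the epithelial to mesenchymal transition, followed the same order, at 83.1 and 86.6 against 16.4 and 13.5 in the crest and 74.1 and 62.6 in the mesenchyme. Other mesenchymal genes lay below the mesenchyme. Col1a1, a fibrillar collagen, stood at 36.9 and 10.2 against 231 and 115, and Foxc2, a forkhead gene of mesenchyme, at 9.23 and 40.7 against 65.1 and 77.1, both named after their values were seen. The summed matrix list was 2169 and 1976, against 1995 and 1800 in the crest and 3630 and 3179 in the mesenchyme.

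Against Dlx-negative mesenchyme, 6 of 606 genes were higher (0.99%) and 14 lower (2.31%). Crabp1 stood at 4162 CPM in WT members, where it was detected in 43 of 44 cells, and 3167 in KO members, where it was detected in 69 of 70, against 1088 and 1289 in the mesenchyme (log2 1.94 and 1.30). Its level in Sox10-positive crest was higher still, at 6084 and 5258. Mycn, a growth regulator of progenitors, stood at 295 and 372 against 145 and 132. Dlx2, Rap2c, Lmo4 and AC160336.1 made up the rest. The lower genes again held globins, Myl4, Myl7, Acta2 and Igfbp5, with Gpx3, a secreted glutathione peroxidase, at 461 and 234 against 1111 and 922. The members therefore shared Crabp1 with the crest class and had lower levels of the muscle and blood transcripts found across the wider mesenchyme.

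Some further crest genes lay above the mesenchyme, at lower counts or by less than 2-fold. Of the 14 neural crest list genes with at least 20 UMIs, 3 were 2-fold higher than the mesenchyme in both libraries and 0 were 2-fold lower. Tfap2a stood at 111 and 71.3 CPM in the members (12 and 14 UMIs), against 7.63 and 8.39 in Dlx-negative mesenchyme and 69.0 and 75.1 in Sox10-positive crest. Id1, a BMP response gene, stood at 221 and 239 against 86.7 and 105 in the mesenchyme and 98.5 and 55.9 in the crest. Nr2f1, at 1034 and 952, lay close to the crest (1059 and 994) and above the mesenchyme (526 and 491). Sox9, which precedes cartilage, lay between the classes at 388 and 290.2, against 668 and 578 in the crest and 232 and 190 in the mesenchyme. Foxd1, a gene of the head and somite mesenchyme, stood at 18.5 and 20.4 against 157 and 130 in the Dlx-negative cells, and was named after its values were seen.

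**Figure D2:**
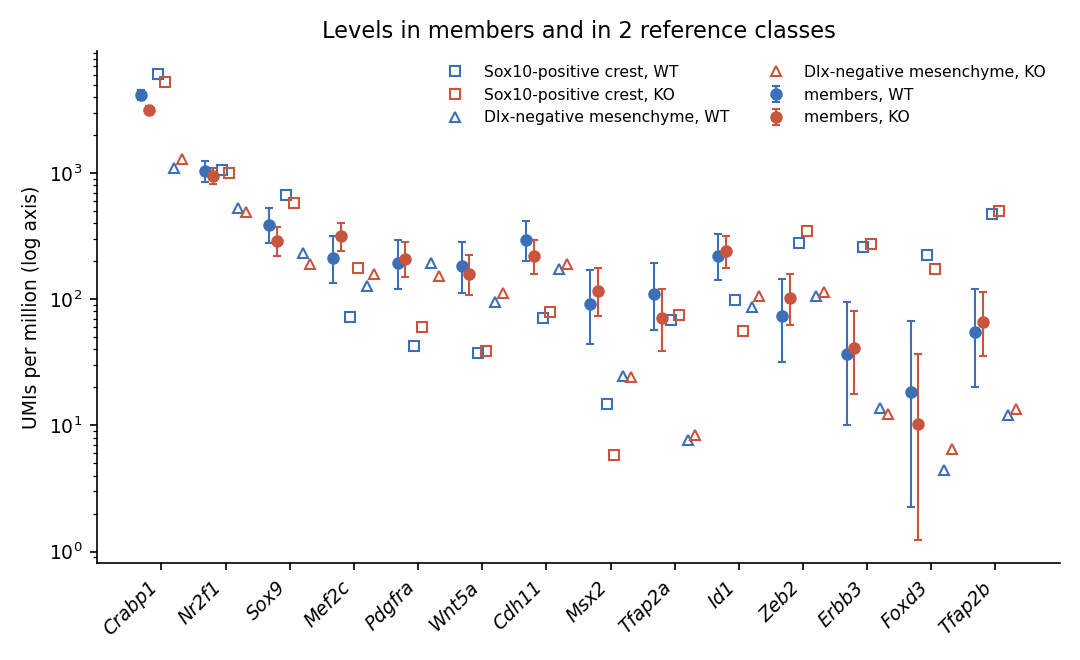
Level (CPM, log axis) of 14 genes outside the positive part of the rule in members (filled circles with 95% Poisson intervals), Sox10-positive crest (open squares) and Dlx-negative mesenchyme (open triangles), WT in blue and KO in red. Crabp1 and Nr2f1 in the members lie above the triangles, Pdgfra, Wnt5a and Cdh11 above the squares, and Zeb2, Erbb3, Foxd3 and Tfap2b below the squares.

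Genes of the arch code were read from lists, counting genes with at least 20 UMIs over the members and setting each count beside all 3210 such genes. Of these 3210, 1.15% were at least 2-fold higher than Sox10-positive crest in both libraries and 0.125% lower, and 1.03% were higher than Dlx-negative mesenchyme and 0.717% lower. Since the minimum counts member UMIs only, lower genes are under-counted in these shares and in the lists alike. In the endothelin and ventral arch list, 3 of 15 genes reached 20 UMIs. Msx2, a BMP target of the distal arch, was higher than in both classes, at 92.3 and 117 CPM against 14.8 and 5.78 in the crest and 24.6 and 24.1 in the mesenchyme. Msx1, its partner, stood at 73.8 and 91.7 and was 2-fold higher than in the crest in both libraries. Mef2c, an effector of endothelin signaling, stood at 212 and 316 against 72.3 and 175 in the crest and 126 and 158 in the mesenchyme, which did not reach 2-fold in both libraries against either class. Below the count minimum, the endothelin receptor gene Ednra gave 3 and 10 UMIs, and Barx1, a homeobox gene of arch mesenchyme, 0 in WT and 11 in KO members. For Barx1 the upper 95% limit in WT members was 34.0 CPM and the KO level was 56.0 (28.0 to 100.2), so the intervals overlapped, and all other cells stood at 20.7 and 12.1.

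In the dorsal arch and Notch list, of the 4 genes of 12 that reached 20 UMIs, 0 were 2-fold different from Sox10-positive crest or Dlx-negative mesenchyme in both libraries. Nr2f1 lay just under that fold above the mesenchyme (log2 0.97 and 0.95). Notch2 stood at 812 and 565 CPM, Nr2f2, a relative of Nr2f1, at 424 and 372, and Hes1, a Notch target, at 157 and 229. Among 30 other arch transcription factors, 12 reached 20 UMIs. Snai2 was higher and Zeb2, a crest repressor, lower than in Sox10-positive crest, while Tbx3, a T-box gene of the ventral arches, was higher than in the mesenchyme at 55.4 and 102 against 23.8 and 20.8, and Foxp1, a forkhead gene, lower at 111 and 86.6 against 256 and 252.

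The whole profile was compared as well, with the rule genes and all marker lists left out, a measure chosen after the data were seen. Each cell was matched by correlation over 2106 genes to profiles of 7 classes built from 44 cells each in the other library. Of the WT members, 24 of 44 matched best to the KO member profile, 10 to Sox10-positive crest, 4 to epithelial cells, 3 to Dlx-negative mesenchyme, 2 to neural tube and 1 to cardiac cells. Of the KO members, 45 of 70 matched best to the WT member profile, 10 to Sox10-positive crest, 10 to neural tube, 3 to Dlx-negative mesenchyme, 1 to epithelial and 1 to cardiac cells. The member profile was the best match of 19.0% of WT and 15.0% of KO Sox10-positive cells and of 13.3% and 8.39% of Dlx-negative mesenchyme. The margins were small, with a median correlation of WT members of 0.627 to the member profile and 0.626 to that of Sox10-positive crest, and of 0.650 and 0.644 for KO members. Neither the arch position nor the Wnt1 lineage of a cell was measured here.

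Variation among the members was first read along the nested Dlx code, splitting them by a UMI of Dlx5 or Dlx6. This split put 22 of 44 WT and 38 of 70 KO members on the positive side, and members on the negative side had to hold 2 UMIs of Dlx1 or Dlx2. Of 547 genes with at least 100 UMIs, 0 were 2-fold higher in both libraries (0%) and 0 were 2-fold lower (0%). The genes below were read at lower counts, over both libraries together with the 2 single-library values beside them. Hand2 gave 9 UMIs on the positive and 1 on the negative side in WT and 19 and 5 in KO, a log2 difference of 1.97 (0.67 to 3.53) over both. Of the Hand2-positive members, 7 of 8 in WT and 12 of 15 in KO carried Dlx5 or Dlx6. Msx2 gave 8 and 2 UMIs in WT and 18 and 5 in KO (log2 1.64, 0.40 to 3.09). Msx2 thus lay on the same side as Dlx5 and Dlx6 in each library, and Msx1 and Ednra of the ventral arch list did not in KO. Mef2c of that list was not among the genes read here. Msx1 gave 6 and 2 UMIs in WT and 9 and 9 in KO (log2 0.20, -1.02 to 1.46), and Ednra 2 and 1 in WT and 3 and 7 in KO (log2 -0.93, -2.89 to 0.86). Hand2 was one of the genes that could admit a cell, so its values are a description.

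Sox9 stood at 433 CPM on the positive and 335 on the negative side in WT and 380 and 181 in KO (log2 over both 0.75, 0.12 to 1.40). Crabp1 lay the other way, at 2895 against 5604 in WT and 1992 against 4600 in KO (log2 -1.11, -1.29 to -0.92). Tfap2a gave 2 UMIs on the positive and 10 on the negative side in WT and 3 and 11 in KO (log2 -2.32, -4.08 to -0.88). Among genes of the more caudal arches, Hoxa3 gave 3 and 9 UMIs in WT and 2 and 9 in KO (log2 -2.10, -3.88 to -0.62). The intervals of 2 other Hox genes spanned 0, with Hoxb2 at a log2 difference of -0.39 (-1.78 to 0.99, and -0.06 in KO) and Hoxa2 at -1.57 (-3.70 to 0.22). Crabp1 and, on few UMIs, Tfap2a, Hoxa3 and Hoxb3 were lower in the Dlx5/Dlx6-positive members of both libraries. Nr2f1 was lower by less (log2 -0.51, -0.85 to -0.18), and Meis2, a TALE homeobox gene, stood at 364 and 355 in WT and 621 and 554 in KO (log2 0.14, -0.33 to 0.62).

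Hox genes were found in many members. A group 2 UMI (Hoxa2 or Hoxb2) was present in 12 WT and 18 KO members, and a group 3 UMI (Hoxa3, Hoxb3 or Hoxd3) in 14 and 19. No Hox UMI was seen in 16 of 44 WT and 31 of 70 KO members, which at these depths does not show that a cell was Hox-negative. The summed Hox list stood at 471 and 331 CPM.

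The members were also split by a group 3 UMI. Of the 547 genes, 0 were 2-fold higher in both libraries (0%) and 0 lower (0%). Hand2 gave 1 UMI in the 14 WT cells with a group 3 UMI and 9 in the 30 without, and 1 in 19 KO cells and 23 in 51 (log2 over both -2.74, -5.84 to -0.76). Dlx5 gave 3 and 17 UMIs in WT and 2 and 28 in KO (log2 -1.91, -3.60 to -0.58). Crabp1 stood at 5699 against 3420 CPM in WT and 4493 against 2660 in KO (log2 0.77, 0.59 to 0.95). Crabp1 was thus higher in members with a group 3 UMI. Hand2 and Dlx5 are rule genes, so their values are a description. That of Dlx5 restates the Hoxa3 and Hoxb3 differences of the Dlx5/Dlx6 split from their other side. The next genes of the Dlx5/Dlx6 split had intervals that spanned 0 here, whether or not the sign turned. Msx2 turned to a log2 difference of -1.22 (-2.95 to 0.17), and Tfap2a kept its sign at -0.47 (-2.08 to 0.90). Sox9 stood at -0.15 (-0.85 to 0.51), and Dlx6 at -0.81 (-2.05 to 0.26, with -0.26 in KO). Twist1 differed little (log2 0.12, -0.31 to 0.53), and Nr2f1 went opposite ways in the 2 libraries (log2 -0.67 in WT and 0.51 in KO).

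**Figure D3:**
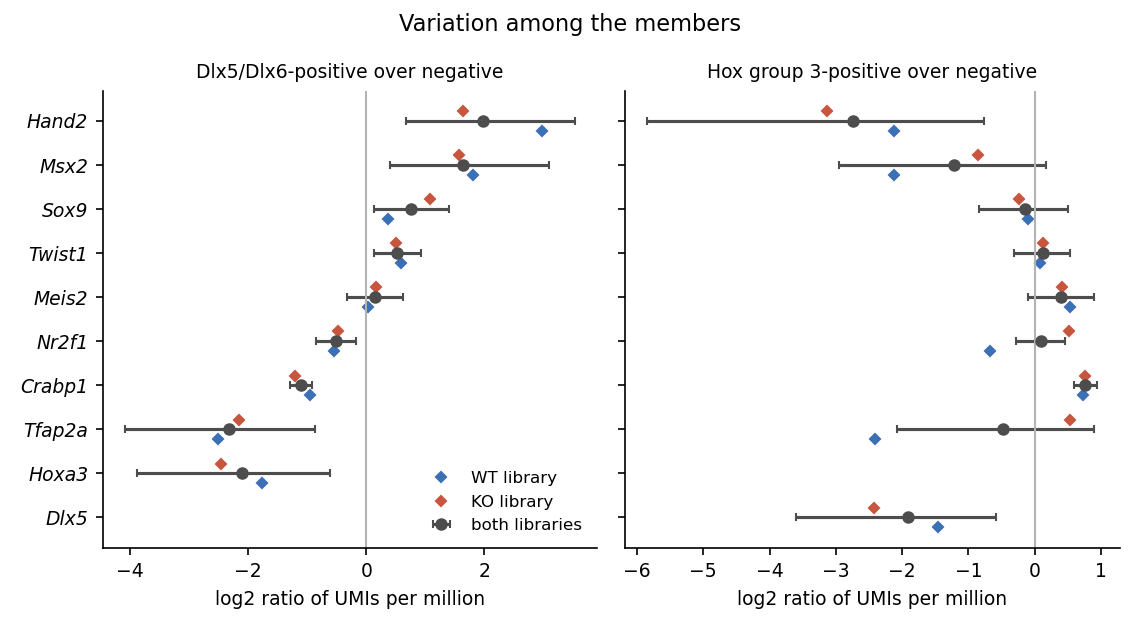
Log2 ratio of CPM between sides of a split of the members, by a Dlx5 or Dlx6 UMI (left) and by a group 3 Hox UMI (right); grey circles are both libraries together with 95% counting intervals, and diamonds are the WT (blue) and KO (red) libraries alone. Crabp1 has -1.11 on the left and 0.77 on the right, and the rule gene Hand2 has 1.97 and -2.74.

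The share of members differed between the libraries. It was 0.368% of WT cells (0.267 to 0.494) and 0.717% of KO cells (0.559 to 0.905), 1.95-fold higher in the KO library (log2 0.96, 0.40 to 1.54). Over the same cells, the Sox10-positive crest made up 2.07% and 1.77% (log2 -0.22, -0.51 to 0.06) and the Dlx-negative mesenchyme 39.3% and 39.1% (log2 -0.01). Cells with exactly 1 Dlx UMI and the rest of the rule made up 1.32% and 2.11%. The larger share was thus on the Dlx side of the rule and not in the mesenchyme as a whole.

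Depth bears on a rule that counts UMIs. In cells under 1500 UMIs members made up 0.0755% in WT and 0.177% in KO, and in cells of 3000 or more 1.13% and 2.29%. Between these, the shares were 0.168% and 0.349% from 1500 to under 2000 UMIs, 0.591% and 0.639% from 2000 to under 2500, and 1.58% and 1.80% from 2500 to under 3000. The KO share was higher in all 5 bins, and the interval of the ratio spanned 0 in each of them. Combined over the bins, whose limits were chosen after seeing the data, the KO share was 1.51-fold higher (log2 0.59).

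When each cell was thinned to 1000 UMIs, 1361 WT and 125 KO cells below that depth dropped out. The number of members expected over all possible draws was 15.4 of 10597 in WT (0.146%) and 22.0 of 9640 in KO (0.228%), a log2 difference of 0.65. A single seeded draw gave 19 and 18 members, 0.179% and 0.187% (log2 0.06, -0.96 to 1.07). Over 100 draws the log2 difference had a median of 0.66 and ran from -0.20 to 1.89, with KO higher in 96 of them. All draws thinned the same cells, so their spread shows the thinning only and leaves out the sampling of cells. Leaving out the shallower cells without thinning, an alternative added after seeing the data, gave 0.415% and 0.726% (log2 0.81, 0.24 to 1.38). The drop from 0.96 to 0.65 thus combined the loss of shallow cells, most of them WT and 0 of them members, with the thinning itself.

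**Figure D4:**
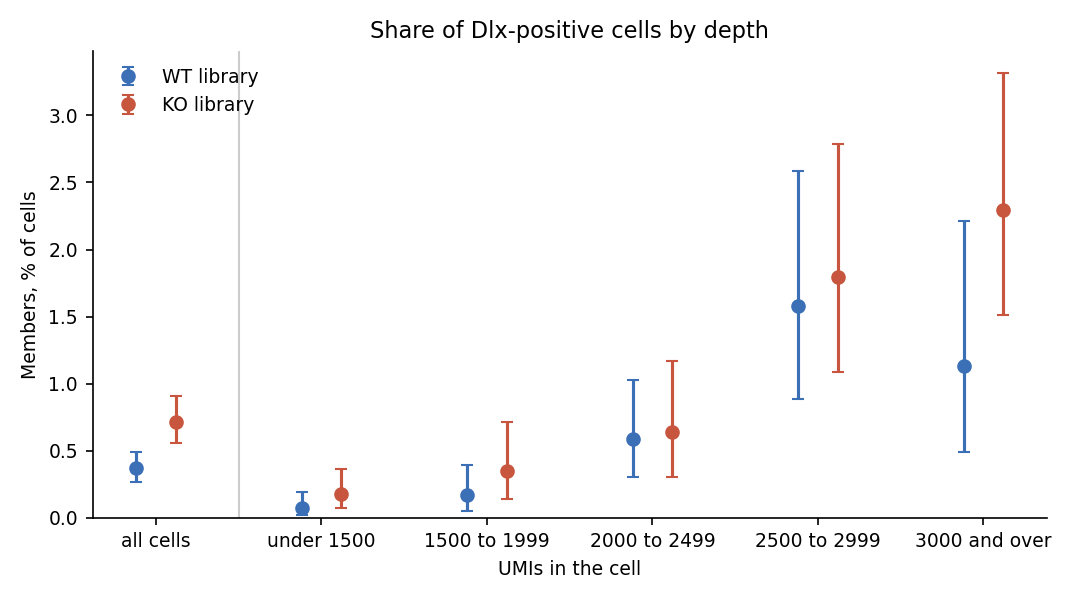
Members as a percent of cells (linear axis from 0) in all cells and in 5 bins of UMIs per cell, WT in blue and KO in red, with 95% exact binomial intervals. The KO point is above the WT point in each bin, from 0.177% against 0.0755% under 1500 UMIs to 2.29% against 1.13% at 3000 and over, and the intervals overlap in every bin.

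Dlx transcripts were also counted without the gate, in sums that include the members' own 128 and 230 UMIs. Over all cells the 4 Dlx genes gave 835 UMIs in WT and 1126 in KO, or 40.2 and 59.5 CPM (log2 0.57, 0.44 to 0.70). Dlx1 stood at 3.80 and 7.97 CPM (log2 1.07, 0.67 to 1.48), Dlx2 at 24.8 and 33.4 (0.43, 0.26 to 0.60), Dlx5 at 7.70 and 11.8 (0.61, 0.31 to 0.92) and Dlx6 at 3.90 and 6.28 (0.69, 0.27 to 1.11). Each of the 4 genes was therefore higher in the KO library. Over the cells that were not members the 4 genes gave 34.2 and 47.8 CPM (log2 0.48, 0.34 to 0.63). In cells that met the rest of the rule the sum was 32.0 and 53.7 (log2 0.74, 0.53 to 0.96), in Sox10-positive crest 232 and 268 (0.21, -0.14 to 0.56), and in cells with an Epcam UMI 70.7 and 87.0 (0.30, -0.02 to 0.62). Of the 3 classes that should lack Dlx genes, the thinned share with a Dlx UMI given above was higher in the KO library in endothelial-marker cells and lower in globin-rich and cardiac cells, and the part of such background in the member share was not tested. Embryo number, stage and dissection cannot be told apart from genotype with 1 library each.

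Within the members, Dlx levels per cell content did not differ in the same way. The 4 genes summed to 1181 CPM in WT and 1171 in KO (log2 -0.01, -0.33 to 0.31), and the 5 mesenchymal genes to 1403 and 1354 (log2 -0.05, -0.34 to 0.25). The rule fixes part of these levels. The libraries were then compared over 547 genes with at least 100 UMIs over all members, the rule genes Dlx2 and Twist1 included, and a gene was counted at 1.5-fold. On this count 35 genes were higher in KO (6.4%) and 13 lower (2.38%). The balance of higher and lower genes depended on the scaling, with 24 and 25 by the median of ratios and 59 and 7 by the trimmed mean. The median log2 ratio was 0.07 in members and 0.08 over the same genes in all other cells. Of the 35, 33 were higher in the other cells by some amount and 2 by 1.5-fold, and of the 13, 11 were lower and 2 by 1.5-fold. Of all 547 genes, 63.3% were higher and 36.7% lower in the other cells by some amount.

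The genes highest in KO were Atp5l, a subunit of the ATP synthase, at 504 CPM in KO and 258 in WT members (log2 0.96, 0.35 to 1.62), and Chchd1, a mitochondrial ribosomal protein, at 463 and 240 (0.95, 0.31 to 1.64). Cenpw, a centromere protein, stood at 423 and 221 (0.93, 0.26 to 1.65), with a log2 ratio of 0.17 in other cells. Tkt, the transketolase of the pentose phosphate pathway, stood at 428 and 231 (0.89, 0.23 to 1.60), with -0.01 in other cells. Cenpw and Tkt were thus among those with little difference outside the members. Dnajc19, Eif3j1, Atox1, Ndufa12, Bzw1 and Nop58 completed the 10 largest.

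The genes lowest in KO were the embryonic globins Hba-x (392 in KO and 1070 in WT CPM, log2 -1.45) and Hbb-y (616 and 1393, log2 -1.18), which were also lower over all other cells (log2 -1.15 and -0.92). Spry2, a feedback inhibitor of FGF signaling, stood at 743 and 1320 (log2 -0.83, -1.17 to -0.48, against -0.39 in other cells). F2r, the thrombin receptor, stood at 397 and 674 (log2 -0.76), and Eno1, a glycolytic enzyme, at 1482 and 2418 (log2 -0.71, against -0.56). Rhoa, Cnbp, Nrep, Spcs1 and Atxn7l3b completed the 10.

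**Figure D5:**
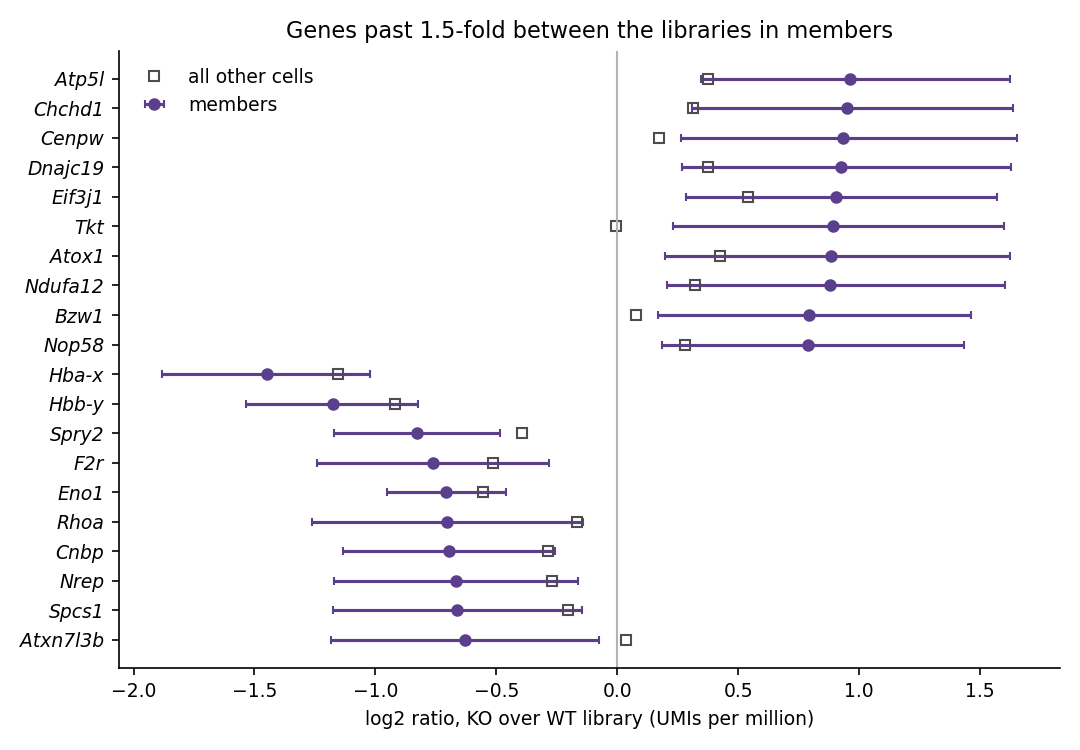
Log2 ratio of CPM, KO over WT library, for the 10 genes with the largest ratio each way in the members (filled circles, 95% counting intervals), with the ratio over all other cells as open squares. Tkt (0.89 against -0.01) and Atxn7l3b (-0.63 against 0.03) have squares near 0, whereas Hba-x and Hbb-y have squares far to the left.

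List genes were compared at a minimum of 20 UMIs, at which 14% of 3210 genes were 1.5-fold higher in KO members and 13.3% lower, with a median log2 of 0.01. Crabp1 was lower in KO (log2 -0.39, -0.57 to -0.22), while over other cells it was 0.13. By the levels given above, it was also lower in KO in Sox10-positive crest, and higher in KO in Dlx-negative mesenchyme. The neural crest list as a whole had 14 of 26 genes at 20 UMIs, 2 higher, 1 lower and a median of -0.09, and its sum, much of it Crabp1, was 8333 and 7246 CPM (log2 -0.20, -0.32 to -0.08). Among arch transcription factors 4 of 12 were higher and 1 lower (median 0.27). Of these Meis2 stood at 360 in WT and 591 in KO CPM (log2 0.71, 0.18 to 1.28, with 0.21 in other cells), and Foxp2, Six4 and Tbx3 had intervals that spanned 0, as did the lower gene, Meis1. The endothelin and ventral list had 0 of 3 past the fold (median 0.34), and the dorsal and Notch list 0 of 4 (median -0.15).

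Notch2 stood at 812 in WT and 565 in KO CPM (log2 -0.52, -0.94 to -0.10), with -0.69 over other cells. Of 11 receptors 2 were higher and 2 lower (median 0.04), among them Ptk7, a planar cell polarity receptor, at log2 -1.14 (-2.27 to -0.03) against -1.24 in other cells. Ligands had 0 of 5 past the fold (median -0.23). For Notch2 and Ptk7 the difference was therefore of like size in and outside the members.

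The smooth muscle list had 0 of 5 genes higher and 1 lower (median -0.09). The lower gene was Tagln, an actin-binding protein of early smooth muscle, with 15 UMIs in 9 WT members and 5 in 3 KO members (log2 -2.44, -4.26 to -0.91, with -0.18 in other cells). Acta2, smooth muscle actin, stood at 157 and 148 CPM. Of 10 matrix genes 2 were higher and 3 lower (median 0.16). Vcan, a proteoglycan of migrating crest, stood at 102 in WT and 219 in KO (log2 1.11, 0.13 to 2.21), and the basement membrane collagens Col4a1 and Col4a2 were at log2 -0.78 (-1.46 to -0.10) and -1.44 (-2.76 to -0.19). The matrix genes thus lay on both sides.

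Cell cycle lists were read last. In S phase, 9 of 29 genes were higher and 2 lower in KO members (median 0.29), and the summed list was 5740 and 6599 CPM (log2 0.20, 0.06 to 0.34, against 0.05 in other cells). Gmnn, the geminin inhibitor of replication licensing, gave 7 UMIs in WT and 45 in KO (log2 1.83, 0.67 to 3.22), and Ung, a uracil glycosylase, 3 and 24 (2.14, 0.42 to 4.52). In the other 7 higher genes the interval spanned 0. In G2 and M phase, 3 of 40 genes were higher and 3 lower (median -0.03), with sums of 9615 and 9797 (log2 0.03, -0.08 to 0.14). Member depth was also higher in KO, and its part in these ratios was not tested.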

How the data were processed

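Droplet 3' single-cell RNA of 2 libraries, 1 WT and 1 KO, was analysed. Per the labels, reads were processed with Cell Ranger 1.3.1 and Scanpy on the mm10 build. The study's methods removed cells under 200 or over 6000 UMIs, cells with under 200 genes, genes in fewer than 3 cells, and mitochondrial and ribosomal UMIs. The deposited values are a signal: the authors divided counts by library size and took the square root. Here each value was squared and divided by the smallest nonzero square of its cell, which gave whole UMIs within 0.01 for all values over 18131 genes.

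The methods name a doublet caller, but not whether it was applied before deposit. No caller was run here, and the shares of members with UMIs of other lineages are given instead. UMIs were summed over cells and expressed as counts per 1000000 (CPM). Shares have exact binomial, levels exact Poisson and ratios exact conditional binomial intervals. A count of 0 was given a floor of 3 UMIs per class. With 1 library per genotype no test was run. Calls used 1.5-fold between libraries and 2-fold in both libraries against other classes, at a minimum of 100 UMIs. Named genes were those of the rule, list genes with at least 20 UMIs over the members, and the 10 largest called each way, with exceptions stated. The members and lists were chosen with earlier results of these data known. Scripts were tested on simulated data, and used Python 3.11.15, numpy 2.4.6, scipy 1.17.1, pandas 2.3.3 and matplotlib 3.10.9. Alternatives covered scaling, count minimums, depth, the rule's minimums and cells with UMIs of other lineages.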

Additional observations from a re-analysis of the deposited data

How the results depend on the processing

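Of 63 summary values recomputed, 31 stayed within their range and 32 moved, with 0 reversed. Of 2392 values of single genes, 2233 stayed, 153 moved and 6 reversed. A single gene could count as reversed only if it was called in the main comparison. A turned sign in any other gene was counted as stayed or moved. The cause was tested for none of the changes, except that a higher minimum or fewer cells leaves fewer genes to count.

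The log2 ratio of member shares was 0.059 in the planned single draw to 1000 UMIs. It lay between 0.57 and 1.26 under the other settings, which included 1 or 3 Dlx UMIs, 2 mesenchymal UMIs, and Sox10 or Epcam allowed. Settings over all draws, over depth bins, without cells under 1000 UMIs, without the gate, with cardiac UMIs allowed up to 10, at equal totals, and less the ratio of other cells were chosen after seeing the data.

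Between libraries, genes higher and lower in KO numbered 24 and 25 after scaling by the median of ratios, and 59 and 7 by the trimmed mean. A minimum of 30 UMIs gave 252 and 235 of 2191, and 1 UMI 1508 and 1426 of 7169. After thinning, 0 and 0 of 20 passed the fold. At least 3 Dlx UMIs gave 12 and 6 of 247, leaving out members with another lineage 16 and 10 of 303, leaving out the deepest members 18 and 9 of 346, and subtracting the ratio of other cells 12 and 5 of 547.

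Genes higher and lower against all other cells numbered 1 and 1 after thinning and 25 and 32 at 30 UMIs. Against Sox10-positive crest they numbered 0 and 0, and 30 and 21, and against Dlx-negative mesenchyme 1 and 0, and 21 and 44. At 30 UMIs the Dlx5/Dlx6 split gave 14 and 11 of 2191, the 14 including Dlx5 and Dlx6, which made the split, and the rule gene Hand2. The Hox group 3 split gave 12 and 26 of 2191, the 26 including the rule genes Dlx5 and Hand2. The Hox split after thinning could not be computed, since it left 0 positive cells.

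The reversed values, as log2 ratios, were Crabp2 in KO over WT at -0.19 thinned and -0.047 at 3 Dlx UMIs, Cnbp at 0.078 and Spcs1 at 0.078 thinned, Gm42418 at -0.42 less the ratio of other cells, and Mycn in WT over Dlx-negative mesenchyme at -0.037 thinned. No paired analysis was possible because each genotype had 1 library.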
